A study of Astyanax mexicanus with 6 samples.

Results

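Cadherins and protocadherins are the cell adhesion genes described here, in embryonic eyes of Astyanax mexicanus, the Mexican tetra. Members were the genes whose symbol starts with cdh and a digit, pcdh, celsr, dchs or fat and a digit, whatever the case and with the suffix for several copies removed. The rule took 55 of the 25271 genes in the tables. They comprise 19 cadherins (cdh), 18 protocadherins outside clusters, 8 clustered protocadherins, 7 fat and dchs genes and 3 celsr genes. Upper and lower case spellings, such as PCDH8 and pcdh8, are separate gene models. Some related genes have other names and stand outside the rule, among them a model described as dachsous 2 and one described as FAT 3.

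Eyes were isolated from wild-type cave fish and from wild-type surface fish, as embryos of about 54 hours post-fertilization. The cave form is blind as an adult and its embryonic eyes later degenerate. Each morph has 2 libraries of poly(A) RNA and 1 library of bisulfite-converted genomic DNA (WGBS), in which methylated cytosines can be read. Neither the number of embryos pooled, nor the cave population, nor whether the replicate RNA libraries are separate pools is stated in the labels, so p-values measure a spread between libraries that may be technical.

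Classical cadherins are membrane proteins that bind calcium and join cells by pairing with cadherins of the neighbouring cell, while their tails hold catenins that link to actin. Clustered protocadherins are transcribed from alternative first exons in gene clusters and give neurons different surface identities, which in the mouse retina serves self-avoidance of amacrine dendrites. Fat and Dachsous proteins bind each other across cell borders, and Celsr proteins (Flamingo in Drosophila) carry planar cell polarity.

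Total counts lay between 117742250 and 154476181 per RNA library, and members took 0.145% to 0.212% of them. Markers of several cell types differed between the libraries. All 18 rod and cone markers tested rose in the libraries labelled cave, where their CPM (counts scaled to the library total) summed to 4923 and 5563, against 74.6 and 98.9 in the libraries labelled surface, and the rod opsin gene rho had 0 counts in surface replicate 1. Of 7 lens markers 4 rose and 0 fell, with sums of 510 and 577 against 81.7 and 58.1 CPM. Because photoreceptor genes are so low in eyes labelled surface, RNA libraries are called labelled cave and labelled surface throughout. Whether the RNA labels match those of the WGBS libraries was not tested. Of 14 forebrain markers 1 fell in edgeR, 7 were at an unadjusted p below 0.05 and DESeq2 called 6 lower. Of the 14, 13 lay below 0, with a median of -1.91 on the log2 scale and sums of 199 and 115 CPM in the libraries labelled cave against 385 and 637 CPM in those labelled surface. The libraries labelled cave also differed from each other. Epidermal markers summed to 10794 CPM in cave replicate 1 and 1112 CPM in cave replicate 2, against 8783 and 10897 CPM in the libraries labelled surface, and muscle markers to 542 and 51.2 CPM against 166 and 197 CPM. Markers of retinal ganglion and amacrine cells summed to 518 and 722 CPM against 363 and 422 CPM. EdgeR called 0 of 10 epidermal, 0 of 7 muscle and 0 of 8 ganglion and amacrine cell markers, with 1, 1 and 5 at an unadjusted p below 0.05, where DESeq2 called 0, 1 and 3 higher. In eyes taken as bulk tissue, fewer cells of a type and less RNA per cell cannot be told apart, and the part of these marker levels in the values below was not tested.

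The first comparison asks which adhesion genes differ in RNA level between cave and surface eyes. Of the members tested, 37 of 54 stood lower in the libraries labelled cave, against 48.8% of all genes. Of the 8 clustered protocadherins 5 stood higher, against 51.2% of all genes, and no member passed the main test. Of the 55 members 54 had enough counts to be tested; for cdh16, the kidney cadherin, the libraries labelled cave held 0 and 0 counts against 20 and 2 counts in those labelled surface. The 5 gut and kidney markers summed to 23.7 and 9.55 CPM against 16.0 and 27.0 CPM, with apoa4a and cdx1b at 0 in some library. Of these, pax2a alone had 10.9 and 8.67 CPM against 15.2 and 22.9 CPM. A model of apoa4a had 10.3 CPM in cave replicate 1, so the sums rest largely on single genes. EdgeR and DESeq2 called 0 of the 5 markers, with 1 at an unadjusted p below 0.05. With edgeR's quasi-likelihood test and Benjamini-Hochberg adjustment over all genes, 0 members were higher and 0 lower at an adjusted p below 0.05, where 2.77% and 0.407% of all genes tested were called. At an unadjusted p below 0.05 there were 7 members higher and 9 lower, against 11.9% and 6.4% of all genes. DESeq2 called 5 members higher, namely PCDH8, pcdh8, pcdh15b, pcdh1g33 and fat1b, and 3 lower, namely cdh4, dchs1a and dchs1b, where it called 6.48% and 3.08% of all genes. The authors' deposited table has the same 8 members at an adjusted p below 0.05, the 5 with a negative sign and the 3 with a positive one. It compares the same RNA libraries, and DESeq2 is among the submitters' listed tools, so it is no independent check. The authors' deposited table calls 6.43% of its genes with a negative sign and 3.03% with a positive one, and its sign runs surface minus cave if the count columns are named rightly.

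The log2 fold change, labelled cave minus labelled surface, was above 0 for 17 members. Over all genes tested 51.2% were above 0 and 48.8% below. The median was -0.39 over the 54 members and 0.02 over all genes. By subfamily the median was -0.77 for 7 fat and dchs genes, -0.60 for 3 celsr genes, -0.57 for 18 cadherins, -0.26 for 18 protocadherins outside clusters and 0.38 for 8 clustered protocadherins. In 24 members (44.4%) both libraries labelled cave lay below both labelled surface, against 24.2% of all genes, and in 11 (20.4%) both lay above, against 28.5% of all genes. The clustered median turned to -0.04 without cave replicate 2 and was 0.61 without cave replicate 1. Without cave replicate 1 the median was -0.28 for celsr genes and -0.05 for protocadherins outside clusters, and without surface replicate 2 it was -0.33 for fat and dchs genes. These counts and medians describe the family and were not tested.

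**Figure D1:**
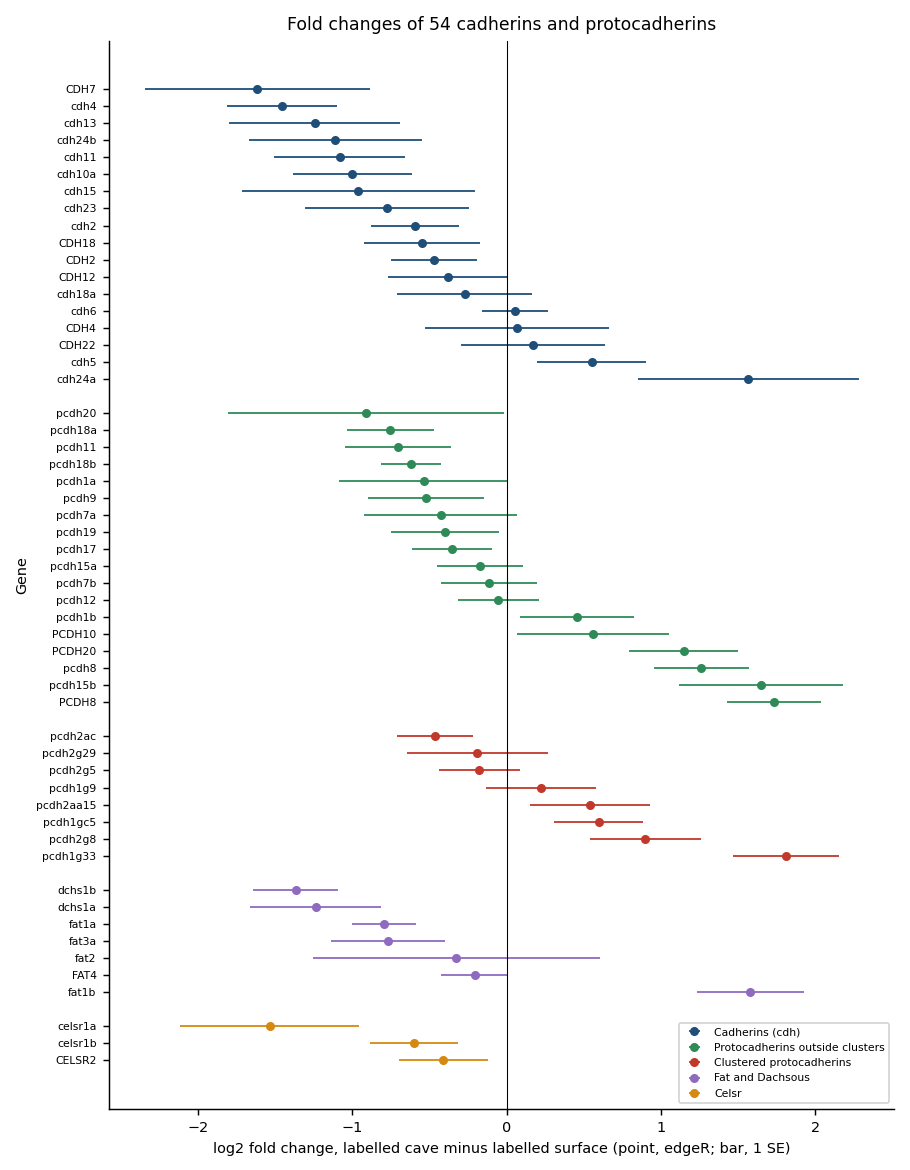
The log2 fold change (labelled cave minus labelled surface, horizontal axis) of each of the 54 members tested is drawn as a point with a bar of 1 standard error, by subfamily. Points run between -1.61 for CDH7 and 1.81 for pcdh1g33, and 37 of 54 lie left of 0.

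Among the classical cadherins, the N-cadherin gene cdh2, the main classical cadherin of neural tissue, had 141 and 231 CPM in the libraries labelled cave against 303 and 259 CPM in those labelled surface. The second copy, CDH2, had 20.5 and 31.3 CPM against 38.2 and 33.7 CPM. Both copies lay lower in both libraries labelled cave, without overlap. On the log2 scale the fold change was -0.60 for cdh2 (SE 0.29) and -0.47 for CDH2 (SE 0.28), with edgeR adjusted p-values of 0.349 and 0.442. Without cave replicate 1 the value for cdh2 was -0.28 and without cave replicate 2 it was -1.08.

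The R-cadherin gene cdh4 (ENSAMXG00000016470, scaffold KB882225.1, 1393830 to 1506395), which is named for the retina, had 5.24 and 5.42 CPM in the libraries labelled cave against 11.3 and 17.9 CPM in those labelled surface. The libraries labelled cave lay close together and below both others. Its log2 fold change was -1.45 (SE 0.36; edgeR adjusted p = 0.112; DESeq2 adjusted p = 0.00431), and it was -1.43 with cave replicate 1 left out and -1.56 with cave replicate 2 left out. It was -1.84 without surface replicate 1 and -1.08 without surface replicate 2. The other copy, CDH4, had 0.791 and 1.65 CPM against 1.15 and 1.18 CPM. Those groups overlapped, and the sign of its small fold change, 0.07, turned when libraries were scaled by their totals alone (-0.03).

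Of the type II cadherins, cdh6, known from kidney and from subsets of retinal cells, had 75.1 and 98.2 CPM in the libraries labelled cave against 84.0 and 82.7 CPM in those labelled surface. The groups overlapped, at a log2 fold change of 0.06 (SE 0.21), which was -0.03 with library totals alone. The OB-cadherin gene cdh11, a gene of mesenchyme and bone-forming cells, had 125 and 52.0 CPM against 199 and 177 CPM. Both libraries labelled cave were lower, and cave replicate 2 much more so. For cdh11 the log2 fold change was -1.08 (SE 0.42; edgeR adjusted p = 0.263), or -1.85 with cave replicate 1 left out and -0.67 with cave replicate 2 left out. CDH7 had 0.631 and 0.231 CPM against 1.05 and 1.6 CPM, at -1.61 on the log2 scale (SE 0.73; edgeR adjusted p = 0.322). Of the remaining type II genes cdh10a, CDH12, CDH18, cdh18a and cdh24b stood between -1.11 and -0.27 on the log2 scale. CDH22 stood at 0.17, and cdh24a at 1.56 with 0.654 and 0.836 CPM against 0.168 and 0.334 CPM, a level near the filter on low counts.

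Cadherins tied to one tissue followed no common direction. The vascular cadherin gene cdh5 had 10.3 and 16.6 CPM in the libraries labelled cave against 8.39 and 9.93 CPM in those labelled surface, both higher, with a log2 fold change of 0.55 (SE 0.35; edgeR adjusted p = 0.478). Leaving out cave replicate 2 gave 0.08 for cdh5, and leaving out cave replicate 1 gave 0.86. The 5 endothelial markers tested summed to 53.4 and 50.1 CPM against 56.2 and 58.0 CPM, with 0 called in either direction by edgeR or DESeq2 and 0 at an unadjusted p below 0.05. M-cadherin, cdh15, a gene of muscle, had 5.6 and 1.14 CPM against 6.90 and 6.23 CPM. The log2 fold change of cdh15 was -0.96 (SE 0.75; edgeR adjusted p = 0.568), or -2.52 without cave replicate 1 and -0.32 without cave replicate 2. Cave replicate 2 was the low library for cdh15 and for the muscle marker sum given above. In cave replicate 1 the muscle sum lay above both libraries labelled surface, and cdh15 lay below both. The part of muscle in the cdh15 values was not tested. T-cadherin, cdh13, which is held in the membrane by a lipid anchor and has no cytoplasmic tail, had 9.50 and 3.35 CPM against 12.3 and 18.1 CPM, at -1.24 on the log2 scale (SE 0.56; edgeR adjusted p = 0.318). The size for cdh13 was -2.18 with cave replicate 1 left out and -0.77 with cave replicate 2 left out.

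Tip links, the fine filaments of sensory hair cells, join cadherin 23 to protocadherin 15, and both proteins also occur at photoreceptor processes. The tip-link gene cdh23 had 3.68 and 3.0 CPM in the libraries labelled cave against 3.37 and 8.06 CPM in those labelled surface, so the groups overlapped and surface replicate 2 stood apart. Its log2 fold change was -0.78 (SE 0.53; edgeR adjusted p = 0.511), which was -0.015 without surface replicate 2 and -1.36 without surface replicate 1. The copies of its partner went different ways. pcdh15a had 11 and 13.5 CPM against 13.2 and 14.3 CPM, with overlap and a log2 fold change of -0.17 (SE 0.28). pcdh15b (ENSAMXG00000018085, scaffold KB871784.1, 7229 to 277245) had 4.93 and 8.69 CPM against 1.51 and 2.83 CPM, higher in both libraries labelled cave. For pcdh15b the log2 fold change was 1.65 (SE 0.53; edgeR adjusted p = 0.190; DESeq2 adjusted p = 0.0402). Without cave replicate 1 it was 2.0 and without cave replicate 2 it was 1.10. Leaving out surface replicate 1 gave 1.18 for pcdh15b, and leaving out surface replicate 2 gave 2.17. The 6 hair cell and inner ear markers tested summed to 31.2 and 27.0 CPM against 22 and 30.3 CPM, with 0 called by edgeR, 1 at an unadjusted p below 0.05 and 1 called higher by DESeq2. The difference between the copies was not tested.

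Protocadherins outside clusters held the member with the smallest p-value. PCDH8 (ENSAMXG00000015488, scaffold KB882194.1, 467593 to 471524) is a copy of paraxial protocadherin, a gene of cell movements in the early embryo and of synapses in the mammalian brain. It had 29.4 and 47.1 CPM in the libraries labelled cave against 11.9 and 11.1 CPM in those labelled surface. The other copy, pcdh8, had 170 and 254 CPM against 107 and 70.7 CPM. Both copies were higher in both libraries labelled cave. The log2 fold change was 1.73 for PCDH8 (SE 0.31), with the smallest edgeR adjusted p of the family, 0.0514 (DESeq2 adjusted p = 0.000479). PCDH8 narrowly passed the edgeR threshold when no filter on low counts was used (edgeR adjusted p = 0.0403) and when all counts were halved (0.04875). It did not pass with DESeq2 size factors (edgeR adjusted p = 0.0575), with library totals alone (0.0711) or with the replicate number as a block (0.0955). For pcdh8 the log2 fold change was 1.26 (SE 0.31; edgeR adjusted p = 0.112; DESeq2 adjusted p = 0.0346). Without cave replicate 1 the values were 2.03 for PCDH8 and 1.52 for pcdh8, and without cave replicate 2 they were 1.27 and 0.86.

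PCDH20 had 18.9 and 34.0 CPM in the libraries labelled cave against 12.7 and 11.2 CPM in those labelled surface, which is 1.15 on the log2 scale (SE 0.35; edgeR adjusted p = 0.175). The copy in lower case, pcdh20, had 7.38 and 0.943 CPM against 7.89 and 7.77 CPM, a log2 fold change of -0.91 with an SE of 0.90. Both libraries labelled cave were lower for pcdh20, cave replicate 1 only slightly so, at -0.085 on the log2 scale relative to the surface mean. PCDH10, the gene of OL-protocadherin, had 36.3 and 106 CPM against 47.2 and 49.0 CPM. The groups overlapped for PCDH10, and its log2 fold change of 0.56 became 1.14 without cave replicate 1 and -0.49 without cave replicate 2. pcdh17, a gene of synapse assembly in the mouse brain, had 39.1 and 59.2 CPM against 64.0 and 61.6 CPM, with a log2 fold change of -0.35 (SE 0.26). pcdh19, whose human counterpart is an epilepsy gene, had 18.2 and 29.8 CPM against 25.1 and 38.3 CPM with overlap, at -0.40 (SE 0.35). Leaving out cave replicate 1 gave -0.08 for pcdh17 and -0.09 for pcdh19, leaving out cave replicate 2 gave -0.77 and -0.89, and leaving out surface replicate 2 gave -0.06 for pcdh19. The pair pcdh18a and pcdh18b was lower in both libraries labelled cave, at -0.75 (SE 0.28) and -0.62 (SE 0.19), with edgeR adjusted p-values of 0.248 and 0.183. The other 8 genes outside clusters, pcdh1a, pcdh1b, pcdh7a, pcdh7b, pcdh9, pcdh11, pcdh12 and pcdh15a, lay between -0.71 and 0.46 on the log2 scale.

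**Figure D2:**
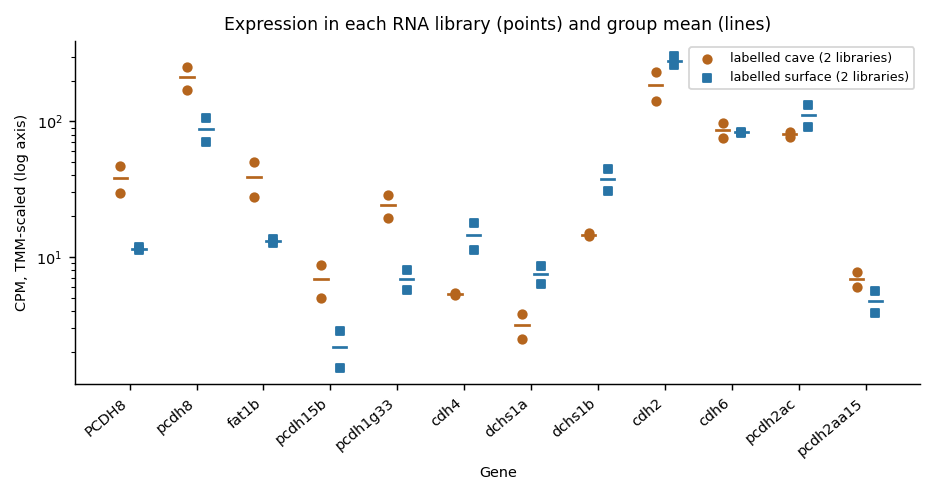
Expression in CPM, scaled by the TMM method (vertical axis, log scale), in each RNA library for 12 members: the 8 that DESeq2 called and 4 with called upstream methylation. The lines are group means, with libraries labelled cave on the left of each pair. For PCDH8 the libraries labelled cave lie at 29.4 and 47.1 CPM, above 11.9 and 11.1 CPM, and for dchs1b at 14.9 and 14.3 CPM, below 30.5 and 44.7 CPM.

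Clustered protocadherins lie on 3 scaffolds in these tables, and 5 of the 8 stood above 0, against 51.2% of all genes. The gamma-type gene pcdh1g33 (ENSAMXG00000010036, scaffold KB871663.1, 45452 to 74632) had 19.5 and 28.6 CPM in the libraries labelled cave against 5.73 and 7.99 CPM in those labelled surface. Both libraries labelled cave were well above the others. Its log2 fold change, 1.81 (SE 0.34), was the highest of the 54 members tested (edgeR adjusted p = 0.0624; DESeq2 adjusted p = 0.000395), and it was 2.06 with cave replicate 1 left out and 1.42 with cave replicate 2 left out. The model of pcdh1g33 lies within that of pcdh1gc5 on the same strand, so reads may be shared between them. pcdh1gc5 itself had 135 and 221 CPM against 107 and 129 CPM, both higher, with a log2 fold change of 0.60 (SE 0.29; edgeR adjusted p = 0.350). Without cave replicate 2 that value was 0.11.

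The alpha-type gene pcdh2ac had 84.3 and 77.0 CPM in the libraries labelled cave against 90.3 and 132 CPM in those labelled surface. Both were lower, with a log2 fold change of -0.46 (SE 0.24; edgeR adjusted p = 0.391). The other alpha-type gene, pcdh2aa15, had 6.04 and 7.73 CPM against 3.88 and 5.58 CPM, both higher, at 0.54 (SE 0.39; edgeR adjusted p = 0.531). pcdh2g8 was higher in both libraries labelled cave, at 8.75 and 12.4 CPM against 4.98 and 6.38 CPM, or 0.90 on the log2 scale (SE 0.36; edgeR adjusted p = 0.273). pcdh1g9, pcdh2g5 and pcdh2g29 overlapped between the groups, at 0.22, -0.18 and -0.19. The value of pcdh2g5 turned to 0.09 without cave replicate 1. Of the 8 clustered members 5 overlap another gene model, as do CELSR2 on its own strand and CDH12, cdh18a and cdh23 on the opposite strand. Paired copies of a gene may also share reads, and whether counting used strand is not given in the sources used here.

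Fat and Dachsous genes had the lowest median of the subfamilies with all 4 libraries, with 6 of 7 below 0, against 48.8% of all genes. Without surface replicate 2 they were not the lowest, with a median of -0.33 against -0.63 for celsr genes and -0.43 for cadherins. Both copies of dchs1, which encodes the Dachsous partner that Fat proteins bind, were lower. dchs1b (ENSAMXG00000008315, scaffold KB882106.1, 985040 to 1192076) had 14.9 and 14.3 CPM in the libraries labelled cave against 30.5 and 44.7 CPM in those labelled surface. dchs1a had 3.81 and 2.48 CPM against 6.27 and 8.56 CPM. Neither copy overlapped between the groups. The log2 fold changes were -1.37 for dchs1b (SE 0.27; edgeR adjusted p = 0.0718; DESeq2 adjusted p = 0.00179) and -1.24 for dchs1a (SE 0.42; edgeR adjusted p = 0.212; DESeq2 adjusted p = 0.0403). For dchs1b the value was -1.40 with cave replicate 1 left out and -1.42 with cave replicate 2 left out. It was -1.70 without surface replicate 1 and -1.06 without surface replicate 2.

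FAT4, the main binding partner of dachsous 1 in the mouse, had 48.3 and 63.1 CPM in the libraries labelled cave against 65.7 and 62.6 CPM in those labelled surface. The groups overlapped, at a log2 fold change of -0.21 (SE 0.22). The copies of fat1, a gene of actin organization and of kidney and lens epithelia in the mouse, lay on opposite sides. fat1a had 47.3 and 57 CPM against 83.5 and 97.1 CPM, at -0.79 (SE 0.21; edgeR adjusted p = 0.131). fat1b (ENSAMXG00000007869, scaffold KB882260.1, 31443 to 103671) had 27.6 and 50.5 CPM against 13.5 and 12.7 CPM, at 1.58 (SE 0.34; edgeR adjusted p = 0.0874; DESeq2 adjusted p = 0.00659). Neither copy overlapped between the groups, and the difference between their fold changes was not tested. Without cave replicate 2 the value of fat1b was 0.99. fat3a, whose mouse counterpart orients amacrine cell dendrites, was lower at 8.45 and 11.2 CPM against 12.4 and 21.0 CPM, at -0.77 (SE 0.37; edgeR adjusted p = 0.351). fat2 had 10.5 and 1.24 CPM against 5.95 and 8.77 CPM, so cave replicate 1 was the highest of the 4 libraries and cave replicate 2 the lowest.

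All 3 celsr genes lay below 0, and none overlapped between the groups. Over all genes tested 48.8% lay below 0, and in 24.2% both libraries labelled cave lay below both labelled surface. Of the 3 celsr genes 1 was at an unadjusted p below 0.05 in edgeR, and DESeq2 called 0. celsr1a had 15.2 and 4.48 CPM in the libraries labelled cave against 26.1 and 30.8 CPM in those labelled surface. celsr1b had 46.9 and 78.0 CPM against 97.0 and 92.6 CPM. CELSR2, a gene of neuron migration and of cilia on brain ventricle cells in the mouse, had 20.8 and 32.7 CPM against 32.7 and 38.3 CPM. For CELSR2 cave replicate 2 lay only just below surface replicate 1. The lowest library was cave replicate 2 for celsr1a and cave replicate 1 for the other two. Their log2 fold changes were -1.53 (SE 0.58), -0.60 (SE 0.28) and -0.41 (SE 0.29), with edgeR adjusted p-values of 0.252, 0.343 and 0.526. Without cave replicate 1 celsr1a stood at -2.66, celsr1b at -0.28 and CELSR2 at -0.12, and without cave replicate 2 at -0.99, -1.10 and -0.86.

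The libraries labelled cave did not agree in level for part of the family. In 7 members, CDH7, cdh11, cdh13, cdh15, celsr1a, fat2 and pcdh20, cave replicate 2 lay at least 1 log2 unit below cave replicate 1, as it did for 21.6% of all genes. In 4 members, CDH4, PCDH10, pcdh1a and pcdh2g29, it lay at least that far above, as for 4.53% of all genes. The libraries labelled surface differed by as much in 3 members, cdh23, cdh24b and pcdh7a, against 7.84% of all genes. The 7 members were picked for low values in cave replicate 2, so their low level there is no separate result. The epidermal, muscle and forebrain marker sums were among those lowest in that library. The part of those tissues in the values of the members was not tested. With cave replicate 1 left out the median log2 fold change of the members was -0.12, and with cave replicate 2 left out it was -0.64. It was -0.58 without surface replicate 1 and -0.16 without surface replicate 2. Over all genes the median lay between -0.046 and 0.049 in these fits. In such fits the lone library is assumed to vary like the other group, so numbers of genes called in them are not taken as results. DESeq2 was run on all 4 libraries only.

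**Figure D3:**
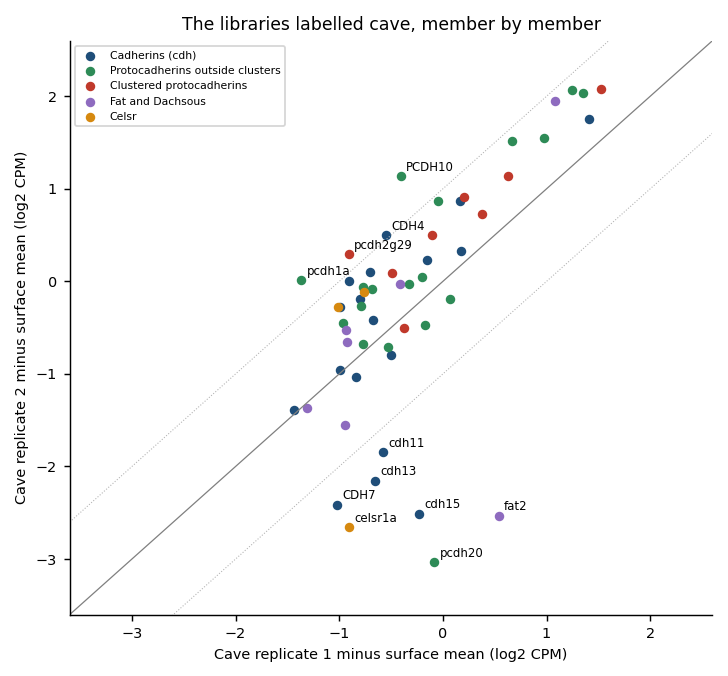
Each point is a member, with the log2 CPM of cave replicate 1 minus the mean of the libraries labelled surface on the horizontal axis and the same for cave replicate 2 on the vertical axis. The solid line marks equal values and the dotted lines 1 log2 unit. Named points lie beyond the dotted lines, 7 below and 4 above, with pcdh20 lowest at -3.03 in cave replicate 2.

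No catenin or polarity partner of the family passed the main test. Over all genes tested 11.9% were higher and 6.4% lower at an unadjusted p below 0.05 in edgeR. DESeq2 called 6.48% higher and 3.08% lower. Of 25 catenin and junction genes edgeR called 0, with 6 at an unadjusted p below 0.05, while DESeq2 called 1 higher and 2 lower. The beta-catenin gene ctnnb1, which links cadherin tails to actin through alpha-catenin, had 284 and 233 CPM in the libraries labelled cave against 439 and 514 CPM in those labelled surface (log2 -0.88; edgeR adjusted p = 0.109; DESeq2 adjusted p = 0.0257). The plakophilin gene PKP4 was at -1.03 (DESeq2 adjusted p = 0.0236), and the nectin gene pvrl1a, an adhesion gene of another family, at 1.78 (DESeq2 adjusted p = 0.00966). The other copies, pkp4 and pvrl1b, were at 0.08 and 0.48 (DESeq2 adjusted p = 0.968 and 0.683). Of 23 genes of planar cell polarity and of Fat and Dachsous signalling edgeR called 0, with 4 at an unadjusted p below 0.05, and DESeq2 called 1 lower, ptk7a (log2 -1.05; DESeq2 adjusted p = 0.0300). The core polarity gene vangl2 stood at -0.64 (edgeR adjusted p = 0.210). Its relatives vangl1 and VANGL1 stood at 0.83 and 0.67 (edgeR adjusted p = 0.151 and 0.506). Of the 23 genes of that list 8 lay above 0 and 15 below, where 48.8% of all genes lay below. The medians of these lists were -0.23 and -0.21, against 0.02 over all genes.

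Among 8 other genes with cadherin repeats edgeR called 1 higher and 0 lower. That gene was cdhr1a, which encodes the photoreceptor cadherin at the base of the outer segment. It had 72.2 and 79.5 CPM in the libraries labelled cave against 1.52 and 1.56 CPM in those labelled surface, which is 5.62 on the log2 scale (SE 0.24; edgeR adjusted p = 0.00200). It moved in the direction of the 18 rod and cone markers. DESeq2 also called CDHR1 (log2 1.59; DESeq2 adjusted p = 0.00208) and CDHR2 (log2 2.09; DESeq2 adjusted p = 0.0108).

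The second comparison asks whether DNA methylation near these genes differs between the eyes. It was read as the share of methylated calls in an upstream region and in the gene body of each gene, where the width of the upstream region is not given in the sources used here. With 1 WGBS library per morph, Fisher's exact test compares those libraries and not the morphs. A region was called at a Benjamini-Hochberg adjusted p below 0.05 and a difference of at least 10 percentage points. All 55 members had at least 20 calls in each library, with 146 to 12774 calls per upstream region.

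Upstream of 10 members methylation was called higher in the cave library, and upstream of 2 it was called lower, where 12.1% and 8.67% of all regions were called. The 10 were cdh2, cdh4, cdh6, cdh13, cdh16, PCDH20, pcdh15b, pcdh1g33, pcdh2aa15 and pcdh2ac, and the 2 were cdh24a and pcdh9. At a difference of at least 20 points 2 remained higher, pcdh2ac and pcdh2aa15, and 0 lower. The share of all regions called at 20 points is not given here, so these 2 counts cannot be set against it. The cave level lay above the surface level in 33 of 55 members (60%), as in 56.6% of all regions.

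The largest difference was at pcdh2ac (ENSAMXG00000018671, scaffold KB872017.1, 65620 to 132655). There 89.2% of 980 calls from the cave library were methylated (exact Clopper-Pearson 95% interval 87.1 to 91.1), against 13.2% of 242 calls from the surface library (9.22 to 18.2). The libraries had very unequal numbers of calls there, with 4.05 times as many in the cave library. Such an imbalance of over 2 times occurred in 5.76% of all regions and in 3 members, pcdh2ac, pcdh15b and cdh5. Its part in the difference was not tested. Each call count of the cave WGBS library was even, and the counts are used here undivided. With cave counts halved, these ratios would be smaller and the cave intervals wider. At pcdh2aa15 (ENSAMXG00000015901, scaffold KB871579.1, 264744 to 291388) the cave library stood at 38.4% of 1302 calls (35.8 to 41.1) and the surface library at 9.42% of 1093 calls (7.76 to 11.3). At pcdh1g33 it was 21.5% of 4578 calls against 10.4% of 4485 calls.

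Among the cadherins, cdh2 stood at 52.8% of 1034 calls in the cave library against 38.1% of 596 calls in the surface library. cdh6 stood at 17.5% of 1838 calls against 6.49% of 1509 calls, and cdh4 at 84.7% of 444 calls against 69.5% of 413 calls. The upstream regions of cdh13 (94.4% against 81.1%) and cdh16 (92.1% against 79.5%) were heavily methylated in both libraries. Outside clusters, PCDH20 stood at 49.0% against 33.1%, and pcdh15b at 93.3% of 1402 calls against 82.9% of 456 calls. The lower pair was pcdh9, with 1.44% of 2504 calls against 13.1% of 2018 calls, and cdh24a, with 74.6% against 86.0%. None of the 11 genes among these 12 that were tested for expression passed the edgeR test, and cdh16 was too low to test. DESeq2 called 6.48% of all genes higher and 3.08% lower, and 5 and 3 of the 55 members. Of the 11 genes it called 3, cdh4 lower and pcdh15b and pcdh1g33 higher in the libraries labelled cave. A link between the RNA and methylation calls was not tested. Were the RNA labels exchanged, each of these RNA directions would be reversed, while the directions of methylation would stay. Of 24 catenin and junction genes 4 were called more and 1 less methylated, and of 22 polarity and Fat and Dachsous genes 1 more and 2 less, where 12.1% and 8.67% of all regions were called. The beta-catenin gene ctnnb1 stood at 45.6% against 29.8%, and the other beta-catenin gene, ctnnb2, at 45.7% of 564 calls against 8.45% of 426 calls.

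**Figure D4:**
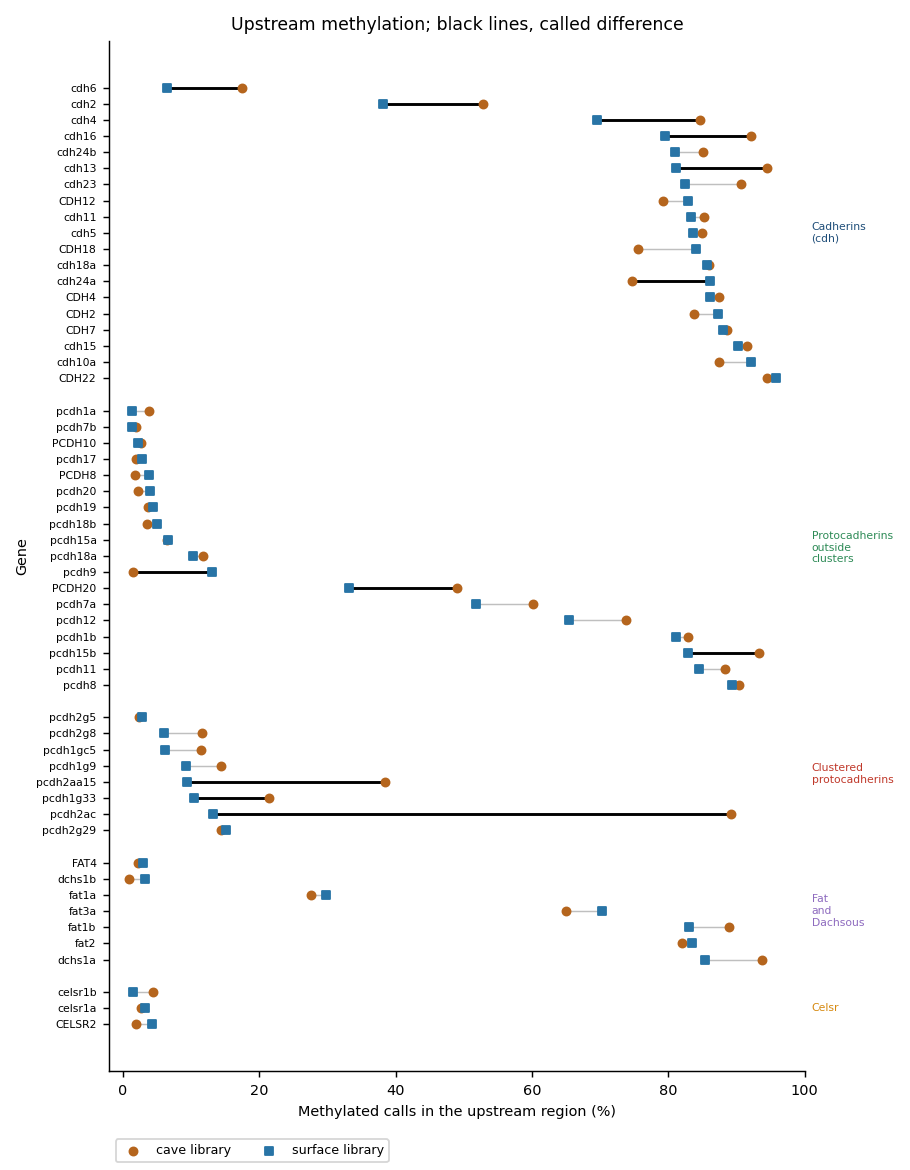
Methylated calls (%, horizontal axis) in the upstream region of each of the 55 members, with the cave library as circles and the surface library as squares; black lines join called differences and grey lines the others. The line at pcdh2ac joins 89.2% in cave DNA and 13.2% in surface DNA, and most other pairs lie close together near 0 or above 80%.

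Many upstream regions were either low or high in methylation, and subfamilies are described by these sets without a test. Both libraries were below 20% in 22 members (40%), against 23.1% of all regions, and above 80% in 19 members (34.5%), against 34.2% of all regions, and 14 members were in neither set. Of the 19 cadherins 12 were in the high set and 1, cdh6, in the low one. All 3 celsr genes were in the low set, at 1.87% to 4.37% in cave DNA and 1.44% to 4.31% in surface DNA. Of the 18 protocadherins outside clusters 11 were low and 4 high. Paired copies could differ widely. PCDH8 stood at 1.71% against 3.87% and pcdh8 at 90.4% against 89.4% on only 146 and 198 calls, while dchs1b stood at 0.857% against 3.28% and dchs1a at 93.8% against 85.4%.

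The low set had a median level of 21.8 CPM in the libraries labelled cave and 31.9 CPM in those labelled surface, and the high set of 6.42 and 7.41 CPM. Across the 54 members tested for expression, upstream methylation and CPM had a Spearman correlation of -0.36 in cave and -0.42 in surface libraries. CPM is not corrected for gene length, so these values do not compare transcript levels of different genes. The genes of the high set with the highest CPM were cdh11 and pcdh8. Both cdh11 and pcdh8 were above 80% in both WGBS libraries, and cdh11 averaged 88.6 ± 51.8 CPM in the libraries labelled cave against 188 ± 15.5 CPM in those labelled surface (SD, n = 2 each). pcdh8 averaged 212 ± 59.6 CPM against 88.6 ± 25.4 CPM (SD, n = 2 each). Over the same 54 members the difference in upstream methylation and the log2 fold change had a Spearman correlation of 0.14. These correlations describe genes that share libraries. Of the 10 members called more methylated upstream, cdh2, cdh4, cdh13 and pcdh2ac had fold changes below 0 and cdh6, PCDH20, pcdh15b, pcdh1g33 and pcdh2aa15 above 0. Were the RNA labels exchanged against the WGBS labels, these signs and that of the correlation of 0.14 would turn, which was not tested.

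Gene bodies were mostly methylated, and less so in the clustered protocadherins, a difference between subfamilies that was not tested. Over the 47 other members the median gene body level was 84.6% in cave DNA and 84.1% in surface DNA. Over the 8 clustered members it was 20.8% and 14.9%. Their lowest body was that of pcdh1g9, at 10.7% of 6274 calls against 6.71% of 6577 calls, and their highest were pcdh2ac, at 59.1% against 50.3%, and pcdh2g5, at 53.9% against 50.6%. Both libraries were below 20% in 4 gene bodies, pcdh1g33, pcdh1g9, pcdh2g29 and pcdh2g8, against 2.88% of all genes. The lowest body outside clusters was that of PCDH8, at 35.0% in each library, and it lies below the highest clustered ones. The cave library was above the surface library in 7 of the 8 clustered bodies and in 31 of the 47 others, where 63.8% of all bodies had that direction.

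**Figure D5:**
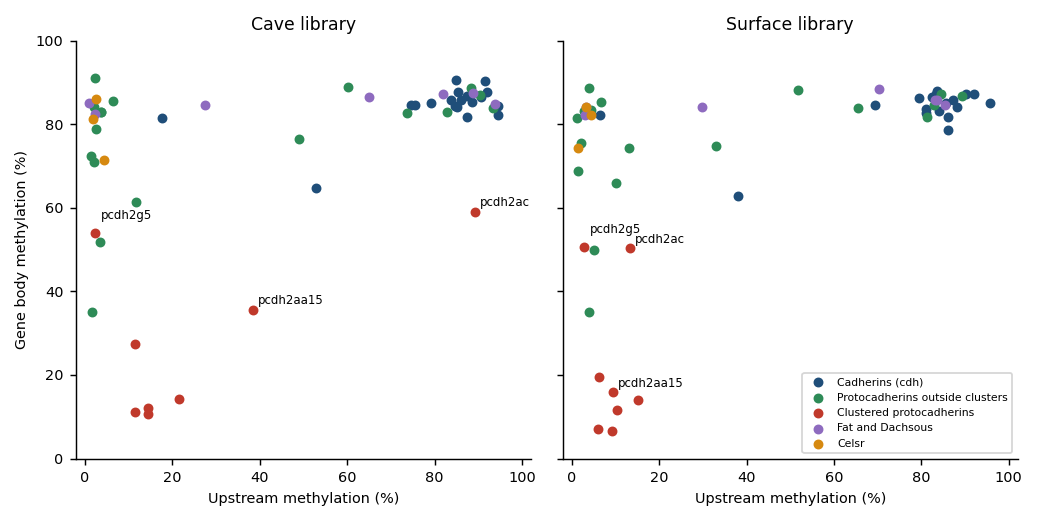
Gene body methylation (%, vertical axis) against upstream methylation (%, horizontal axis) for the 55 members in the cave library (left) and the surface library (right). The 8 clustered protocadherins lie below the other members for the most part, and pcdh2ac lies at 89.2% upstream in the left panel and 13.2% in the right one.

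One gene body was called more methylated in the cave library and 0 less, where 3.15% and 1.99% of all bodies were called. The called body was that of pcdh2aa15, with 35.7% of 27692 calls (35.1 to 36.2) against 15.8% of 25534 calls (15.4 to 16.3). Its upstream region was called in the same direction, as given above. Because a read can carry several calls, the intervals are too narrow, and they cover counting error only.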

How the data were processed

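Per the file headers, the authors deposited raw counts per gene for the 4 RNA libraries, and counts of calls, methylated or unmethylated, in each gene body and upstream region for the 2 WGBS libraries. Tools listed in the submitters' processing notes are Bismark, DESeq2, featureCounts, STAR, Subread and Trimmomatic. Their versions, the genome build, strand setting and cytosine context: not given in the sources used here. Of the authors' deposited comparison, which per the file headers holds a mean signal, the log2 change and its error, a score (their ratio), p-values and adjusted p-values, the log2 value and adjusted p-value were used. A set of 4 per-sample columns of methylation ratios was not used.

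The main test was edgeR's quasi-likelihood test (version 4.0.16, R 4.3.3) with TMM scaling and the default filter, on 22850 genes, with DESeq2 1.42.0 as an alternative. Where no other method is named, adjusted p-values are edgeR's with Benjamini-Hochberg adjustment. The SE is the log2 fold change over the root of the F statistic. Methylation percentages were computed from calls, and regions with at least 20 calls in each library were compared with scipy 1.17.1. Python 3.11.15, pandas 2.3.3 and matplotlib 3.10.9 were used. Both tests were also run on simulated data. The RNA changes planted there were larger than that of any member tested, and the simulated calls were drawn independently. These runs therefore say nothing of how reliable the tests are for the members. Among counts of 1 to 30 in the RNA libraries, 74.4% to 86.6% were even, and each call count of the cave WGBS library was even, so halved counts were tried.

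The count table lacks every 0 in its symbols, so symbols came from the methylation table by gene identifier. This bears on 4 members (cdh10a, PCDH10, PCDH20 and pcdh20), and both tables give the same 55. Clustered protocadherins were taken as those described as alpha or gamma, which leaves out pcdh1a and pcdh1b. Members, gene lists and marker lists were chosen with earlier results of these data known. The members named are those with called methylation and the 10 largest fold changes above a floor on average CPM. The 3 with the highest level in each subfamily and those with textbook roles are also named. CPM of single genes are TMM-scaled, and marker sums use library totals.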

Additional observations from a re-analysis of the deposited data

How the results depend on the processing

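The median of the members stayed below 0 under each alternative run, at -0.49 with library totals alone, which moved the median of all genes to -0.06, and between -0.64 and -0.12 with 1 library left out. Members called higher numbered 5 with DESeq2, 1 without the filter on low counts, 1 with counts halved and between 0 and 11 with 1 library left out. Members called lower numbered 3 with DESeq2 and between 0 and 18 with 1 library left out. Over all genes DESeq2 called 1593 higher and 756 lower of 24584. Called higher were 726 of 24584 genes without the filter and 660 of 22099 with counts halved. In fits with 1 library left out the lone library is assumed to vary like the other group, so numbers of members called in them are not given. Methylation calls were the same with cave calls halved. Minimums of 50 and 100 calls removed no member, since each region held at least 146, and so say nothing of stability. At 20 points or more, upstream calls numbered 2 more and 0 less, and gene body calls 0 more, without a share of all regions to set beside them. A fit with the replicate number as a block called 0 members higher and 0 lower, against 318 and 35 of 22850 genes. At an unadjusted p below 0.05 it held 12 of 54 members, against 3319 of 22850 genes. Same-numbered libraries deviated with a correlation of -0.07 over 22850 genes, so the numbers give no evidence of pairing.

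The log2 fold change turned sign for CDH4 with library totals alone (-0.0269) and with the replicate block (-0.0262), and for cdh6 with library totals alone (-0.0296). With 1 library left out, CDH4 ranged from -0.64 to 0.50, cdh6 from -0.24 to 0.24, pcdh2g5 from -0.58 to 0.088, fat2 from -2.57 to 0.43 and PCDH10 from -0.49 to 1.14. CDH4 also stood at -0.042 and cdh6 at -0.020 without surface replicate 1. The cause was not tested. Among members outside the naming rule, CDH12, CDH22, cdh18a, pcdh1b, pcdh1g9, pcdh2g29, pcdh7a and pcdh7b also turned sign in at least 1 fit with a library left out. The other 30 members chosen by the rule with a fold change kept their direction under each alternative run. With 2 libraries per group edgeR has few degrees of freedom, and members near the filter, such as CDH7 and cdh24a, have large errors.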

Other observations

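Gene models between the clustered protocadherin members were looked at after their values were seen. The 3 scaffold spans hold 17 models, 8 members and 9 others, most without a symbol. Upstream methylation was higher in the cave library in 15 of the 17 models, against 56.6% of all regions, and 9 were called more and 0 less methylated, against 12.1% and 8.67% of all regions. Among the 9 models outside the rule, all 9 upstream levels were higher in the cave library and 6 were called, with medians of 49.8% in the cave library against 15.1% in the surface library. Gene body levels were higher in the cave library in 16 of the 17, against 63.8% of all bodies, with 2 called more methylated, against 3.15%. The highest body was at 59.1% in cave DNA (pcdh2ac) and at 50.6% in surface DNA (pcdh2g5). In the RNA libraries 14 of the 17 had a log2 fold change above 0, against 51.2% of all genes, and edgeR called 0 higher and 0 lower. Neighbouring and overlapping models share reads and calls, so these are not independent values, and 1 library per morph gives no replicate.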
